A study of Mus musculus with 3 samples.

Results

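The 10 genes Axin2, Sp5, Nkd1, Notum, Cdx1, Cdx2, Rnf43, Znrf3, Lgr5 and Dkk1 are targets and feedback regulators of Wnt/beta-catenin signalling. The list was given by gene name, with earlier results of these data known, and all 10 were among 22180 genes measured. Of these, 3 (Axin2, Notum and Lgr5) had a second probe set. The brighter set, by mean log2 level over the 3 arrays, was used with the other shown beside it. The files do not say which strand or transcript a second set detects, so it may not be a second reading of the same RNA. Total RNA was measured on Affymetrix Mouse Gene 2.0 ST arrays, with 1 array for each of 3 cultures. The 2i culture was EB3 mouse embryonic stem cells (mESCs, an established line) kept for 34 days in N2B27 with 2 µM CHIR99021 and 2 µM PD0325901. The Activin+PD culture was EB3 mESCs kept for 64 days in N2B27 with 20 ng/ml Activin A and 2 µM PD0325901. The third culture was mouse epiblast stem cells (mEpiSCs) induced from EB3 mESCs, in N2B27 with neither inhibitor, but with bFGF at 12 ng/ml and Activin A at 20 ng/ml. All 3 cultures therefore derived from EB3, and CHIR99021 was present in 2i alone.

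In this pathway the kinase GSK3 marks beta-catenin for destruction in a complex built on Axin proteins. Wnt ligands, or a GSK3 inhibitor such as CHIR99021, let beta-catenin accumulate and act with TCF/LEF factors at target genes. Many targets encode inhibitors of the pathway itself, so that their RNA is used as a readout of it. In naive mESCs, GSK3 inhibition is known to support self-renewal, in part by relieving repression by Tcf7l1. PD0325901 inhibits MEK and so blocks ERK activation, and Activin A signals through SMAD2/3.

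TCF/LEF factors bind sequences close to CTTTGA, so the RefSeq promoter windows of the members (GRCm38.p6, 250 bases before to 50 after the start) were searched for it on both strands. Windows were matched for 6 of 10 members, Axin2, Sp5, Nkd1, Cdx2, Rnf43 (2 starts) and Dkk1. Cdx1, Notum, Znrf3 and Lgr5 were not matched. The 250 bases before the start are shown for Sp5 and Dkk1, the members with matches, and for Axin2 and Cdx2, whose levels differed most between 2i and Activin+PD among the matched members. They run 5′ to 3′ on the gene's strand, and capitals mark CTTTGA or its reverse complement TCAAAG. Their positions are chr2:70474673-70474922 (plus strand) for Sp5, chr19:30549497-30549746 (minus) for Dkk1, chr11:108920099-108920348 (plus) for Axin2 and chr5:147307250-147307499 (minus) for Cdx2.
Sp5: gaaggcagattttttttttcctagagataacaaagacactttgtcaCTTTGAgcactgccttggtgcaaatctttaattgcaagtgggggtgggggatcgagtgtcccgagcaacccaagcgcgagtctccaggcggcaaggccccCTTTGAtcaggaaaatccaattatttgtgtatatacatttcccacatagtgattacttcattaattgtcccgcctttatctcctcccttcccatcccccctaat
Dkk1: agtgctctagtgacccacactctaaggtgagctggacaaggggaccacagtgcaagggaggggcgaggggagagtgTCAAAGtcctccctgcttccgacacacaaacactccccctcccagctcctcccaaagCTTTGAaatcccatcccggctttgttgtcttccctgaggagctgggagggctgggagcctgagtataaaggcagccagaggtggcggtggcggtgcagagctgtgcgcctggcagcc
Axin2: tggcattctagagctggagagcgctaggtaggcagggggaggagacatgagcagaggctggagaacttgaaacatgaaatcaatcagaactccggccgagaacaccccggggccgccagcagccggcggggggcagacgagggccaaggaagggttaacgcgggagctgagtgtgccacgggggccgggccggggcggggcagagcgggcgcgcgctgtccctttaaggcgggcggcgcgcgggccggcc
Cdx2: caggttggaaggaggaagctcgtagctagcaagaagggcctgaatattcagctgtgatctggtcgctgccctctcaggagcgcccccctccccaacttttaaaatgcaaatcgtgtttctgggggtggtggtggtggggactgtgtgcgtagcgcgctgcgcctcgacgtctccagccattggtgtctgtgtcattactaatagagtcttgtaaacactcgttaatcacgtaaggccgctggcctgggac
The Sp5 window held 2 matches, which began 204 and 104 bases before the start, and the nearer match extended to the longer form CTTTGAT, which contains the shorter motif. The Dkk1 window also held 2, beginning 174 (reverse strand) and 117 bases before the start. The windows of Axin2, Cdx2, Nkd1 and both Rnf43 starts held 0 matches, which says only that these letters were not in these windows. Of 32851 promoter windows in the table, 16% held at least 1 match and 1.73% held 2 or more, and 3.73% held CTTTGAT. GC content was 45% in the Sp5 window, 60.7% in that of Dkk1, 70% in that of Axin2 and 57.3% in that of Cdx2, against a median of 52.7% over all windows. A match is a stretch of letters and not a measured binding site.

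Between 13359 and 13774 genes were above background on each array. As background served the 95th percentile of probe sets for odour receptors (1405 olfactory or vomeronasal sets), at intensities of 45.4 to 48.1, or 5.50 to 5.59 on the log2 scale. The labelled cell states were checked against markers. All 12 naive markers, such as Zfp42 and Esrrb, were above background on both mESC arrays, with median log2 levels of 10.18 in Activin+PD and 10.06 in 2i against 5.93 in mEpiSC. In mEpiSC 9 of the 12 were still above background, with Klf5 highest at 9.36 and Fgf4 next at 8.73. The median of 10 mEpiSC markers was 8.88 in mEpiSC, 7.01 in Activin+PD and 6.04 in 2i. Of these Hesx1 went the other way, at 7.58 in Activin+PD and not above background in 2i or mEpiSC. The 6 markers common to both states, Pou5f1 and Sox2 among them, were above background on all 3 arrays. Summed intensity of 11 fibroblast markers was 682 in Activin+PD, 670 in 2i and 938 in mEpiSC. In the same order 7, 8 and 8 of them were above background. Acta2 was the highest in mEpiSC, at a log2 level of 7.60, and Dcn, Lum and Postn were not above background on any array. The 9 endoderm markers summed to 552, 527 and 864 in the same order, and 6, 5 and 7 of them were above background. Foxa2, which is also on the mEpiSC list, was the highest in mEpiSC at 8.01, followed by Gata6 at 7.09. Sox7 and Ttr were not above background on any array. The higher sums of these lists in mEpiSC stand beside every difference from mEpiSC given here, and their part in it was not tested.

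Each culture had 1 array, so no difference was tested and no p-value or replicate error can be given. Differences are of log2 intensities, and they are set against the spread between probe sets of the same gene. That spread was 0.24 for 2i minus Activin+PD (588 genes), 0.36 for 2i minus mEpiSC (600 genes) and 0.33 for mEpiSC minus Activin+PD (612 genes). It is the standard deviation, over genes, of the disagreement between the brightest pair of probe sets, scaled down to a single set. It covers probe set error, and transcript differences where the sets of a pair detect different RNAs, but not variation between cultures. In whole-culture RNA, fewer cells that express a gene and less RNA per cell cannot be told apart. 2i and Activin+PD differed in CHIR99021, in Activin A and in days of culture, and these cannot be told apart as the source of a difference. 2i and mEpiSC differed in CHIR99021, PD0325901, Activin A, bFGF and cell state, and these cannot be told apart either. The same holds for mEpiSC and Activin+PD, which differed in PD0325901, bFGF and cell state. Days of culture were not listed for mEpiSC, so they may also differ in both comparisons with it.

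Between the 2 mESC cultures, the members with the clearest differences were Cdx2, Axin2, Cdx1 and Sp5. Each was at least 2-fold higher on the 2i array, at 6.98-fold, 3.90-fold, 3.80-fold and 2.72-fold. Of the 10 members 9 were above background on the brighter of these arrays, and 4 of those 9 were at least 2-fold higher in 2i, where 0.82% of 14022 genes compared were. None of the 9 was at least 2-fold lower in 2i, where 1.38% of genes were. The median difference of the 9 was 0.58, beside 0.0059 over all genes compared. All 9 differences were above 0, as were those of 50.9% of genes, although for Nkd1 and Notum the difference was below the probe set spread.

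Against mEpiSC, the second culture without CHIR99021, the members went both ways. Notum, Cdx2, Cdx1 and Axin2 were at least 2-fold higher in 2i, 4 of 10, where 4.96% of 14223 genes were. Lgr5 was at least 2-fold lower in 2i, 1 of 10, where 4.53% of genes were. This Lgr5 call rests on a probe set chosen through its mEpiSC level. The median over the members was 0.33, beside -0.030 over all genes compared, and 7 of 10 differences were above 0 against 46.2% of genes. Both comparisons use the same 2i array, so their values are given side by side and neither adds to the other. By level, Axin2, Cdx1 and Cdx2 stood at least 2-fold above both other arrays in 2i, 3 of 10, where 72 of 14539 genes (0.495%) did. With the mean of all probe sets in place of the brighter, Axin2 exceeded mEpiSC by 0.98 and lost its 2-fold call, which left 3 members higher in 2i than in mEpiSC and 2 above both other arrays.

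**Figure D1:**
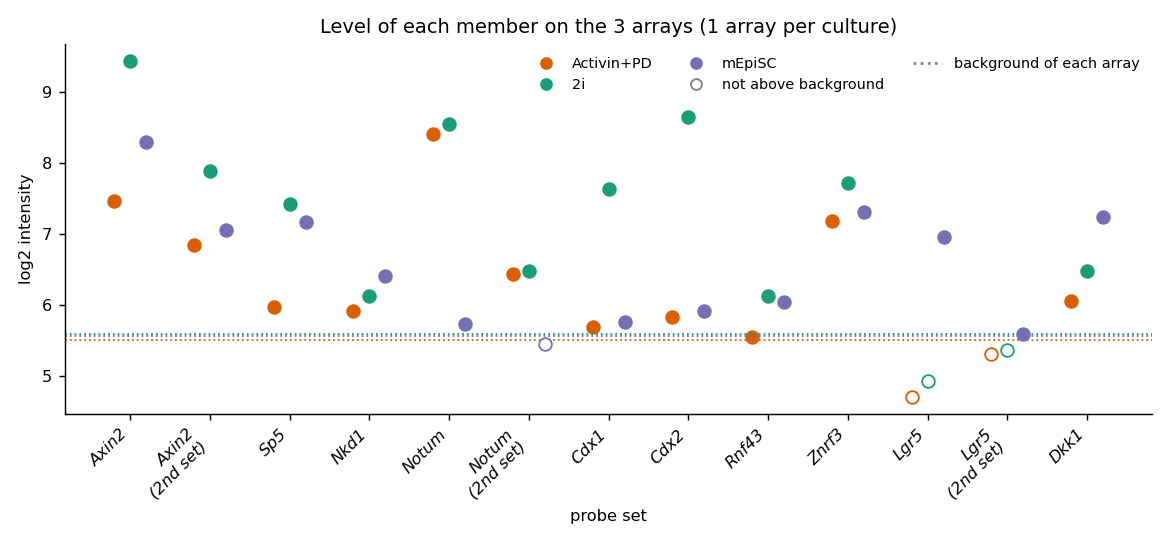
Log2 intensity of each member's probe sets in the 3 cultures, 1 point per array, with dotted lines at each array's background and open points for values not above it. Cdx1 and Cdx2 stand well above background in 2i alone, Notum on both mESC arrays, and Lgr5 in mEpiSC alone.

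Axin2 and Nkd1 encode inhibitors that act inside the cell. Axin2 is a scaffold of the complex that destroys beta-catenin. Its intensity was 177 in Activin+PD, 691 in 2i and 315 in mEpiSC, or 7.47, 9.43 and 8.30 on the log2 scale. The 2i array was highest and Activin+PD lowest, and each step between neighbours was larger than the probe set spread. 2i exceeded Activin+PD by 1.96, and 19 of 14022 genes, Axin2 included, differed by as much in that direction. It exceeded mEpiSC by 1.13 (2.20-fold), as did 4.13% of genes, and mEpiSC exceeded Activin+PD by 0.83. The second probe set read 115, 236 and 133 in the same order of cultures. There 2i was higher than Activin+PD by 1.03 (2.04-fold) and than mEpiSC by 0.83, while mEpiSC and Activin+PD differed by 0.20, less than the spread. 2i was the highest array on both probe sets, with smaller differences on the dimmer set. With the mean of both sets in place of the brighter, 2i minus Activin+PD was 1.498 and 2i minus mEpiSC was 0.98.

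Nkd1 encodes a protein that binds Dishevelled and dampens Wnt signalling. It read 60.2 in Activin+PD, 70.2 in 2i and 84.9 in mEpiSC, close to background on every array. 2i exceeded Activin+PD by 0.22 and was below mEpiSC at -0.27, both less than the probe set spread. mEpiSC exceeded Activin+PD by 0.50, or 1.41-fold, as did 1659 of 14383 genes compared.

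Rnf43 and Znrf3 encode related transmembrane ubiquitin ligases that remove Frizzled receptors from the cell surface. Rnf43 read 46.9 in Activin+PD, just above the background of 45.4, 70.2 in 2i and 66.2 in mEpiSC. 2i exceeded Activin+PD by 0.58 (1.497-fold) and mEpiSC by 0.085, the latter less than the spread. Znrf3 read 146 in Activin+PD, 210 in 2i and 159 in mEpiSC. 2i exceeded Activin+PD by 0.53 (1.44-fold) and mEpiSC by 0.40 (1.32-fold), while mEpiSC and Activin+PD differed by 0.12. Neither gene was 2-fold apart in any comparison. Both were lowest in Activin+PD, although for Znrf3 the gap to mEpiSC was less than the spread. Of the genes compared, 2.6% and 3.29% exceeded Activin+PD in 2i by as much as Rnf43 and Znrf3.

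Notum encodes a secreted enzyme that removes the lipid from Wnt ligands and inactivates them. Its intensity was 338 in Activin+PD, 373 in 2i and 53.2 in mEpiSC, where background was 47.5. Its levels on the 2i and Activin+PD arrays differed by 0.14, below the probe set spread. 2i exceeded mEpiSC by 2.81 (7.02-fold), as did 0.562% of genes, and mEpiSC minus Activin+PD was -2.67 (6.35-fold). The second probe set read 86.5 in Activin+PD and 89.5 in 2i and was not above background in mEpiSC, at 43.8. On that set 2i was at least 1.89-fold higher than mEpiSC. mEpiSC was the lowest array on both probe sets.

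Lgr5 encodes an R-spondin receptor and marks Wnt-dependent stem cells of the gut. It was not above background on either mESC array, at 26.1 in Activin+PD and 30.5 in 2i, and read 125 in mEpiSC. mEpiSC was at least 2.59-fold higher than 2i and at least 2.75-fold higher than Activin+PD. The second probe set was not above background in Activin+PD or 2i, at 39.8 and 41.2, and stood at 48.5 in mEpiSC, just above the background of 47.5. The mEpiSC reading thus rests on the probe set with the higher mean, since the other gave a bound of 1.01-fold against 2i. That higher mean came from mEpiSC alone, and the set used was the dimmer one on both mESC arrays. Each 2-fold call of Lgr5 therefore comes from a set chosen through the array where it was high. Lgr5 also passed the background filter only through mEpiSC.

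Dkk1 encodes a secreted inhibitor that binds the co-receptors Lrp5 and Lrp6. It read 66.4 in Activin+PD, 89.1 in 2i and 152 in mEpiSC, and each step was larger than the probe set spread. 2i exceeded Activin+PD by 0.42 (1.34-fold), and 2i minus mEpiSC was -0.77 (1.70-fold). mEpiSC exceeded Activin+PD by 1.19 (2.28-fold), as did 2.61% of 14383 genes compared. Lgr5 and Dkk1 were thus the members with the highest level in mEpiSC by more than the spread.

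Sp5, Cdx1 and Cdx2 encode transcription factors. Sp5, a zinc finger factor and direct target of beta-catenin, read 63.1 in Activin+PD, 172 in 2i and 143 in mEpiSC. The 2i and mEpiSC arrays differed by 0.26, less than the probe set spread, and both stood above Activin+PD. 2i exceeded Activin+PD by 1.44, as did 44 genes (0.314%), and mEpiSC exceeded it by 1.18 (2.27-fold), as did 2.65%. Its promoter window is the one shown above with 2 CTTTGA matches, a count that the Dkk1 window shares. Dkk1 differed from Sp5 in having its highest level in mEpiSC and a difference of 0.42 between the mESC cultures.

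Cdx1 and Cdx2 are caudal-type homeobox genes that pattern the posterior embryo, and Cdx2 also specifies trophectoderm. Cdx1 read 51.9 in Activin+PD, 197 in 2i and 54.2 in mEpiSC, and Cdx2 read 57.1, 399 and 60.2. Both were just above background on the arrays without CHIR99021 and 2 log2 units or more above it in 2i, by 2.04 for Cdx1 and 3.05 for Cdx2. Cdx1 in 2i exceeded Activin+PD by 1.93, as did 21 genes (0.15%), and mEpiSC by 1.86 (3.64-fold), as did 1.62%. Cdx2 in 2i exceeded Activin+PD by 2.80, as did 5 of 14022 genes in that direction, Cdx2 included. It exceeded mEpiSC by 2.73 (6.62-fold), as did 0.612%. Between mEpiSC and Activin+PD the differences were 0.063 for Cdx1 and 0.077 for Cdx2, below the spread of 0.33. If a constant of 16 is taken off every intensity, 2i exceeds Activin+PD by 2.34 for Cdx1 and 3.22 for Cdx2, since that widens the differences of genes near background.

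The members also varied between the cultures that lacked CHIR99021. mEpiSC was at least 2-fold higher than Activin+PD for Lgr5, Dkk1 and Sp5, 3 of 10, where 3.59% of 14383 genes were, and at least 2-fold lower for Notum, 1 of 10, where 5.37% were. The Lgr5 call again rests on a probe set chosen through its mEpiSC level. The median over the 10 members was 0.50, beside 0.042 over all genes, and 9 of 10 were above 0, as were 54.8% of genes. This comparison shares the Activin+PD array with 2i minus Activin+PD and the mEpiSC array with 2i minus mEpiSC. Its values therefore do not add to theirs. Apart from Lgr5, which was not above background on either mESC array, Activin+PD had the lowest level of every member but Notum. That order was within the probe set spread for some members. Activin+PD was below mEpiSC by only 0.063 for Cdx1, 0.077 for Cdx2 and 0.12 for Znrf3, and below 2i by only 0.22 for Nkd1. Axin2, Notum, Rnf43 and Znrf3, 4 of the 10, lie on chromosome 11, and their patterns differed as given above.

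**Figure D2:**
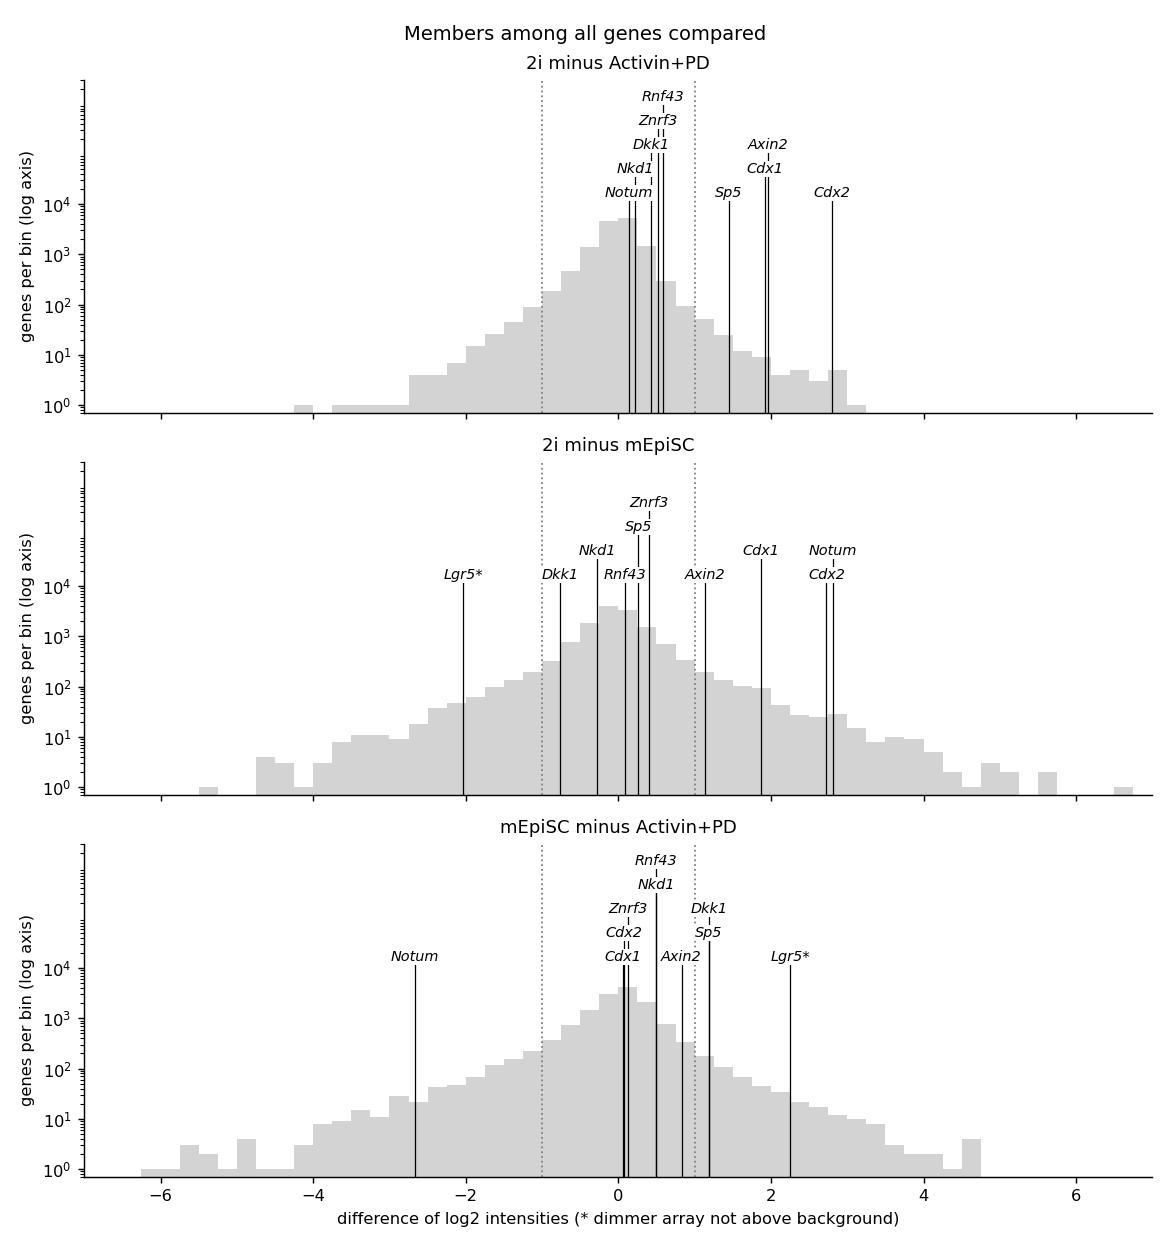
Grey bars count genes compared by their difference of log2 intensities (bins of 0.25, log axis for counts), and black lines mark members. Cdx2, Axin2, Cdx1 and Sp5 lie beyond the 2-fold line in 2i minus Activin+PD, while Lgr5 and Notum lie on opposite sides in both comparisons with mEpiSC.

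Other genes used as Wnt targets were measured on the same arrays. Of 23 listed, 21 were found and 18 were compared between the mESC cultures, and 2 were at least 2-fold higher and 2 lower in 2i, where 0.82% and 1.38% of all genes were. Their median was 0.38, beside 0.0059 over all genes. Zfp703 was higher in 2i by 1.17 and the cyclin gene Ccnd1 by 1.06. Sox4 was at -1.37 (-0.40 on its second probe set), and Fzd7, a Frizzled receptor, was at -1.29. Against mEpiSC, 1 of 20 was higher in 2i, Tbx3 at 4.06, and 4 were lower, where 4.96% and 4.53% of all genes were, with a median of -0.037 against -0.030 over all genes. Those 4 were Prickle1 at -2.38, Sox4 at -2.22 (-1.02 on its second probe set), Fzd7 at -2.20 and Myc at -2.13. Tbx3 is also a naive marker, with a log2 level of 6.20 in mEpiSC.

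On the receptor side of the pathway, 28 of 32 genes of receptors, R-spondins and secreted inhibitors were compared between the mESC cultures. By measured values 1 was at least 2-fold higher and 1 lower in 2i, where 0.82% and 1.38% of all genes were, and the median was -0.15. Fzd10 was higher in 2i by 1.48, and Sfrp5, a secreted Wnt antagonist, was at -1.07 by its measured value. Sfrp5 was not above background in 2i, and its bound of -0.91 is under 2-fold, so by bounds 0 were lower. Sfrp1 of the same family was at -0.90. Against mEpiSC, 2 of 29 were higher in 2i and 6 lower by measured values, or 2 and 5 by bounds, where 4.96% and 4.53% of all genes were, with a median of -0.22. Porcn, the enzyme that adds the lipid to Wnt ligands, was higher in 2i by 1.93 and Fzd10 by at least 1.88, whereas Fzd6 was at -1.91. Porcn and Notum, which add and remove the same lipid, thus both stood higher in 2i than in mEpiSC, and neither was 2-fold apart between the mESC cultures, with Porcn at -0.15.

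Genes of the beta-catenin core, from Ctnnb1 itself to the destruction complex, Dishevelled, TCF factors and co-factors, were compared in the same way. Of 28 listed, 27 were found, and Gsk3a was not matched. None of 27 compared was 2-fold apart in either comparison with 2i, where 0.82% and 1.38% of genes were higher and lower than Activin+PD, and 4.96% and 4.53% than mEpiSC. Shares this small leave few calls to be found among 27 genes, so the absence of any does not set the core apart from other genes. The medians were 0.035 against Activin+PD and -0.079 against mEpiSC. The extremes against Activin+PD were Csnk1e, a casein kinase gene, at -0.72, Bcl9, a beta-catenin co-factor, at 0.53 and the co-repressor gene Tle1 at -0.47 (0.04 on its second probe set). Against mEpiSC they were Csnk1e at -0.64, Pygo1 at 0.57 and Tnks2 at -0.48. Ctnnb1 stood at 10.98 in Activin+PD, 11.01 in 2i and 10.76 in mEpiSC. Axin1, the constitutive counterpart of Axin2, stood at 7.89, 8.01 and 7.85, so that its differences from 2i were 0.12 and 0.16 where those of Axin2 were 1.96 and 1.13.

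Genes of the tissues in which Cdx genes act were compared as well. Of 15 caudal and posterior genes compared between the mESC cultures, 3 were at least 2-fold higher in 2i and 0 lower, where 0.82% and 1.38% of all genes were, with a median of 0.083. Those were Nkx1-2 at 3.20 (0.43 on its second probe set), Wnt8a at 1.79 and Gbx2 at 1.07 (0.49 on its second). Cdx4, the third member of the Cdx family, stood at 5.67, 5.80 and 5.40 in Activin+PD, 2i and mEpiSC, the last not above background. Its difference of 0.13 between the mESC cultures stands beside 1.93 and 2.80 for Cdx1 and Cdx2. Against mEpiSC, 2 of 16 were higher in 2i, Sall3 at 2.25 and Nkx1-2 at 2.14 (0.36 on its second probe set), and 2 lower, where 4.96% and 4.53% of all genes were, with Cyp26a1 lower by at least the bound of -1.99 and Fgf8 at -1.93.

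Of 16 trophoblast and gut genes compared between the mESC cultures, 0 were at least 2-fold higher in 2i and 1 was lower, where 0.82% and 1.38% of all genes were. The lower gene was Gata3 at -1.56 (-0.18 on its second probe set). Bmp4 was at 0.92 and Fgfr2 at -0.87, and the median was -0.077. Elf5, a trophoblast factor, and the gut genes Cdh17 and Fabp2 were not above background on any array. Other trophoblast genes were above it on every array, among them Tead4 at 7.89, 7.57 and 7.19 in Activin+PD, 2i and mEpiSC. In the same order Tfap2c stood at 7.30, 7.24 and 6.18, and Eomes at 6.85, 7.05 and 9.43. The gut gene Hnf4a stood at 6.76 in 2i, higher than Activin+PD by 0.53 and than mEpiSC by 0.55. Muc2, another gut gene, was above background on all arrays. The list thus held both genes with and genes without signal. Against mEpiSC, 2 of 16 were higher in 2i and 3 lower, where 4.96% and 4.53% of all genes were, the latter being Krt18 at -2.41 (-1.85 on its second probe set), Eomes at -2.38 and Krt8 at -1.82. The 2 higher were Tfap2c at 1.06 and Fgfr2 at 1.01.

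**Figure D3:**
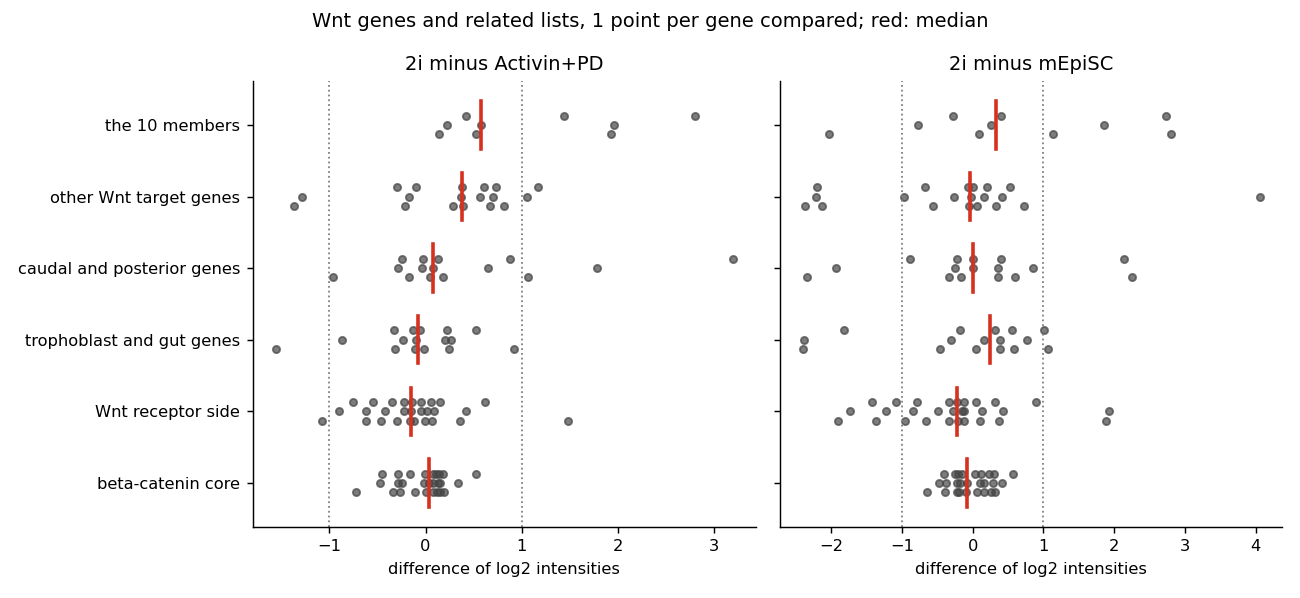
Each point is the difference of log2 intensities of a gene compared between 2i and Activin+PD (left) or mEpiSC (right), by list, with the list median in red and dotted lines at 2-fold. In each panel 4 members lie to the right of the 2-fold lines. No gene of the beta-catenin core lies beyond them, as few of all genes compared do.

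The genes whose pattern over the 3 arrays lay nearest to a member were found by Euclidean distance between log2 levels centred on each gene's mean. With 3 arrays this is a description of likeness only. For Axin2, among 12643 other genes above background on all arrays, the nearest was Mcc at a distance of 0.054, with levels of 7.18, 9.21 and 8.06 in Activin+PD, 2i and mEpiSC. Zfpm2 followed at 0.28, Smagp at 0.38, Trh at 0.40 and Zfp36l3 at 0.41. For Cdx2, among 13358 other genes above background in 2i, the nearest was Arhgap20 at 0.081, with 5.14, 7.996 and 5.15 in the same order and not above background outside 2i. Pglyrp1 at 0.095, Ct55 at 0.23, Gfra3 at 0.26 and Dmgdh at 0.32 came next. Ct55 and Dmgdh were not above background on either other array and Gfra3 was not in mEpiSC, so their distances, like that of Arhgap20, run through values with no measured order and rank these genes only roughly. Pglyrp1 was the gene of these with a clear level on the other arrays, at 6.66 in Activin+PD and 6.64 in mEpiSC. Neither set of 5 held another of the 10 members.

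**Figure D4:**
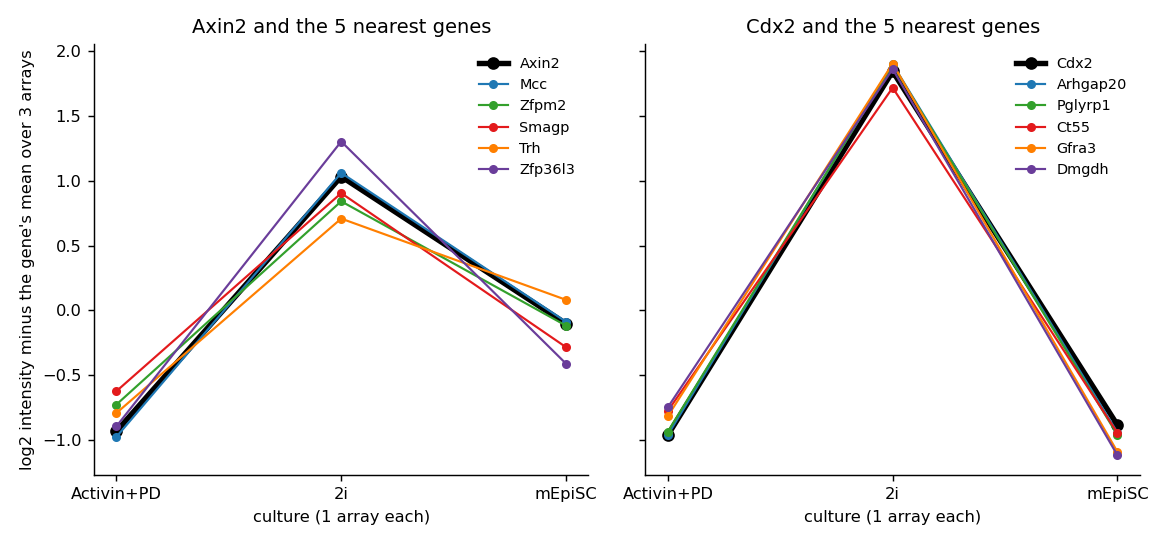
Log2 intensity minus the gene's mean over 3 arrays for Axin2 (left) and Cdx2 (right), black, and the 5 genes nearest to each, with lines that join the arrays of a gene. Axin2 has an intermediate mEpiSC level, whereas Cdx2 is low on both arrays without CHIR99021. The neighbours share these shapes because they were chosen for likeness to them.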

How the data were processed

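The deposited table gave 1 intensity per probe set and array. Per the series' design text the submitters used GeneSpring GX 11.5, and per the submitters' processing notes RMA, which corrects background, quantile-normalises and summarises probes. From their range (18.9 to 11623) the deposited intensities are linear, so log2 was taken. Whether a constant was added before deposit was not found in these sources, and it would shrink the differences of dim genes. The array annotation build is not given either, so no coordinates of probe sets or genes are printed. Promoter coordinates are those of the RefSeq promoter table (GRCm38.p6), and chromosomes come from RefSeq gene symbols.

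Of 33793 probe sets, 23521 had 1 gene symbol, 1814 several and 8458 none listed, and 22180 genes remained, each by its probe set with the highest mean. A gene was compared where the brighter array was above its background, and a 2-fold difference was the threshold. Counts and shares of genes that differed by as much as a member are in the same direction and include that member. Where the dimmer array was not above background, a bound is given against that background, while counts use measured values unless bounds are named. The counting was tested on simulated data. Members, lists and the rule for named genes (all members, the 3 largest differences per list and comparison, and the 5 nearest patterns of Axin2 and Cdx2) were chosen with earlier results of these data known. Ccnd1, Myc, Ctnnb1, Axin1, Cdx4, Fgf8, Tfap2c, Tead4, Hnf4a, Muc2, Elf5, Cdh17, Fabp2 and the marker genes named lie outside that rule and were named after their values were seen. Alternatives covered scaling, a subtracted constant, the background, the filter, the threshold and the probe set rule. The number of arrays limits the precision. Python 3.11.15, numpy 2.4.6 and pandas 2.3.3 were used.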

Additional observations from a re-analysis of the deposited data

How the results depend on the processing

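No paired analysis was possible because each culture has 1 array, and no replicate could be left out for the same reason. Centring each array on its median or quantile normalisation moved none of 29 member differences by more than the probe set spread and no count of genes or members by over 1.5 times. With 16 subtracted from each intensity, 9 of 29 member differences grew by more than the spread, none changed sign, 295 genes in place of 193 were lower in 2i than in Activin+PD, and 110 in place of 72 stood above both other arrays in 2i. With a 1.5-fold threshold, 359 genes were higher and 637 lower in 2i than in Activin+PD, 1455 higher and 1351 lower in 2i than in mEpiSC, 1256 higher and 1574 lower in mEpiSC than in Activin+PD, and 224 higher in 2i than on both other arrays. At that threshold 2 members in place of 1 were lower in 2i than in mEpiSC. The other member counts moved by at most 1.5 times under every alternative. Raising values below background to it, or averaging all probe sets of a gene (for member counts both chosen after seeing the data), moved 2 and 5 of 29 member differences, those of Lgr5, Axin2 and Notum. No list median moved by more than the spread under quantile normalisation, no filter or values raised to background, the settings run for medians. Averaging probe sets ended the 2-fold call of Axin2 against mEpiSC (0.98), which left 3 members higher in 2i than in mEpiSC and 2 above both other arrays. Signal over background limits Rnf43, Nkd1 and Lgr5 and the low levels of Cdx1, Cdx2 and Notum. It also limits Sp5 and Dkk1 in Activin+PD, at 0.47 and 0.55 log2 units over background. With 16 subtracted, Sp5 in 2i exceeded Activin+PD by 1.73 in place of 1.44.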
